A study of Mus musculus with 8 samples.

Results

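The non-additive part of the response to losing Terc and Ku86 was measured in mouse testis, as the interaction of the 2 losses in a 2 by 2 design. For each probe set it is the double knockout minus the Ku86 knockout, minus the Terc knockout minus wild type, on log2 group means. A value of 0 means that the double knockout stood where the single knockouts add up to, a value below 0 that it stood under that sum, and a value above 0 that it stood over it. All 8 arrays of the series entered, and 7282 of 12488 probe sets were bright enough to be tested. Of these, 56 met 1 of 4 patterns set by thresholds. In 5 both single knockouts were higher than wild type and the double was not, and in 3 both were lower and the double was not. A further 39 were higher in the double only and 9 were lower in the double only.

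Total RNA came from testis and was read on Affymetrix MG_U74Av2 arrays, which hold several probe sets for some genes and none for others. The 4 genotypes, with 2 arrays each, were Ku86(+/+);Terc(+/+), called wild type here, Ku86(+/+);G3-Terc(-/-), called Terc knockout, Ku86(-/-);Terc(+/+), called Ku86 knockout, and Ku86(-/-);G3-Terc(-/-), called double knockout. G3 marks the third generation without Terc, and telomere length, which shortens over such generations, was not measured. No label or record used here names the strain or age of the mice. The array records call the material germ cells, where the labels say testis, and they name a pool of 3 mice for 1 double knockout array.

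Terc is the RNA template that telomerase copies to lengthen chromosome ends. Ku86, the product of Xrcc5, binds broken DNA ends as a partner in the Ku heterodimer, starts their rejoining by non-homologous end joining, and also sits at telomeres. The testis depends on both sides of this biology, because spermatogonia divide throughout life and meiotic cells make and repair programmed breaks.

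The median signal per array lay between 49.65 and 73 in arbitrary intensity units, and arrays correlated with each other at 0.910 to 0.959 across probe sets. Prm1, which packs sperm DNA, read 13783.2 to 18506.5 on the 8 arrays, and the sperm-specific lactate dehydrogenase gene Ldhc read 9521.0 to 13680.6. The epididymal genes Lcn5 and Gpx5 read at most 41.2 and 82.6. Not all testis markers were seen, since the meiotic gene Sycp3 read at most 9.3. The protamine gene Prm2 read at most 155.4, and the Leydig cell genes Star and Insl3 at most 83.2 and 139.2. Gpx5 thus read about as high as Star, and these values do not settle whether epididymis was present. Arrays were scanned on 3 days. Replicate 1 of the Ku86 knockout and of the double knockout were scanned on day 1, wild type replicate 1 by itself on day 3, and the remaining 5 arrays, covering all 4 genotypes, on day 2. The record of wild type replicate 1 calls it a repeat hybridisation after high background.

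The targeted genes were checked first. Xrcc5 read 46.3 and 75.6 on the wild type arrays, 71.2 and 11.1 on the Terc knockout arrays, 419.9 and 458.8 on the Ku86 knockout arrays, and 259.0 and 423.3 on the double knockout arrays. All 4 arrays labelled as lacking Ku86 were thus higher than all 4 labelled as having it, opposite to the direction of a lost transcript. Where the probes lie in the transcript, and whether that stretch was deleted, is not known here, so genotypes below are those of the labels, and every direction rests on the labels. The interaction of Xrcc5 was 0.62 ± 0.90 (SE, 2 arrays a genotype; limma adjusted p = 0.924). Its sign turned when the floor was raised, when Terc knockout replicate 2 was left out, and on the linear signal scale. Terc had 0 probe sets.

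The first question was how many genes departed from additivity at all. Limma called 0 of 7282 probe sets on the interaction at an adjusted p under 0.05, and the lowest adjusted p was 0.124, for Tmem129. At an unadjusted p under 0.05 there were 367 probe sets, or 5.04%, of which 118 (1.62%) were above the additive expectation and 249 (3.42%) below it. The same fit gave 385 (5.29%) for the loss of Terc averaged over Ku86 and 375 (5.15%) for the loss of Ku86 averaged over Terc, with 1 (0.0137%) and 0 called after adjustment. All 3 contrasts set 4 arrays against 4. The share at that unadjusted threshold was therefore about the same for the interaction as for either loss, and near the threshold itself.

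The lower and upper quartiles of all interactions were -0.45 and 0.24, with a median of -0.094 and a median SE of 0.44. The interaction exceeded 1 in size for 732 probe sets (10.1%) and 2 for 76. The tilt toward values below 0 depended on how arrays were brought to one scale. Of the probe sets at an unadjusted p under 0.05, 67.8% lay below the additive expectation with the deposited scaling, 52.6% after quantile normalization and 29.8% after centring each array on its median. The median interaction moved with it, to -0.0095 and to 0.20. The sign of a small interaction therefore depends on the scaling used.

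The sample descriptions number the arrays as experiment 1 or experiment 2, each with 1 array of every genotype, so the interaction could be read separately in each. The arrays of experiment 2 were all scanned on day 2, whereas those of experiment 1 were spread over the 3 scan days. A value from experiment 1 therefore also holds differences between days. Across all tested probe sets the interactions of the 2 experiments correlated at r = 0.156 and had the same sign in 54.8%. Probe sets of 1 array share its scale and background, so this is a description and carries no p. The corresponding values were r = 0.0764 and 52.9% for the loss of Terc and r = 0.0840 and 53.5% for the loss of Ku86. The plot of the interaction in each experiment shows a round cloud, with the pattern members spread from its inner part outward. The double-only higher member Tcea1 lay at 0.27 and 0.36 in experiments 1 and 2. Mobp, higher in both singles only, lay at -4.25 and -1.93.

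**Figure D1:**
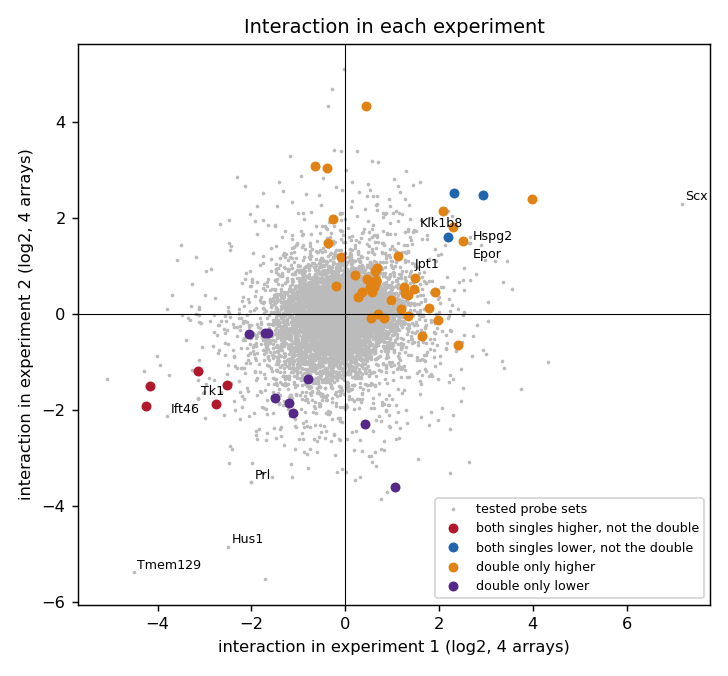
Interaction of each tested probe set (log2) computed from the 4 arrays of experiment 1 (horizontal axis) and of experiment 2 (vertical axis). Grey points are the 7282 tested probe sets and coloured points the members of the 4 patterns, which were chosen on both experiments together. The cloud has r = 0.156, and Tmem129 (-4.51 and -5.38) and Scx (7.17 and 2.29) lie far out on the same side of 0 in both.

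Patterns were then counted. A genotype counted as shifted where its mean differed from wild type by at least 1 on the log2 scale and both of its arrays lay beyond both wild type arrays, and as not shifted where the means differed by under 0.5. All comparisons share the same wild type arrays. By that rule 219 probe sets (3.01%) were higher and 56 (0.769%) lower in the Terc knockout, 163 (2.24%) higher and 56 (0.769%) lower in the Ku86 knockout, and 303 (4.16%) higher and 39 (0.536%) lower in the double knockout. Most probe sets, 4313 or 59.2%, were not shifted in any of the 3.

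The commoner outcome for a probe set higher in both single knockouts was to be higher in the double as well. Of 79 such probe sets (1.08% of those tested), 52 (65.8%) were also higher in the double, 22 (0.302% of all tested) lay between the thresholds, and 5 (6.33%, or 0.0687% of all tested) were not shifted. Over the 79 the median log2 difference from wild type was 1.35 in the Terc knockout, 1.39 in the Ku86 knockout and 1.37 in the double. The double thus stood at the level of either single knockout, not at their sum, and the median interaction was -1.62. All 3 differences subtract the same wild type arrays, so a low wild type reading raises them together. The 65.8%, the level of the double and that median therefore follow in part from the choice. In all 79 the double stood under the sum, as in 57.5% of all tested probe sets. Choosing high single knockouts pushes the interaction below 0 in advance, so that count describes the 79 and supports nothing. Of the 9 probe sets (0.124%) lower in both single knockouts, 3 were lower in the double, 3 lay between and 3 (0.0412%) were not shifted. Of the 303 higher in the double, 39 (12.9%) were not shifted in either single, whereas 99 (32.7%, or 1.36% of all tested) were also higher in the Terc knockout and 77 (25.4%, or 1.06%) in the Ku86 knockout.

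**Figure D2:**
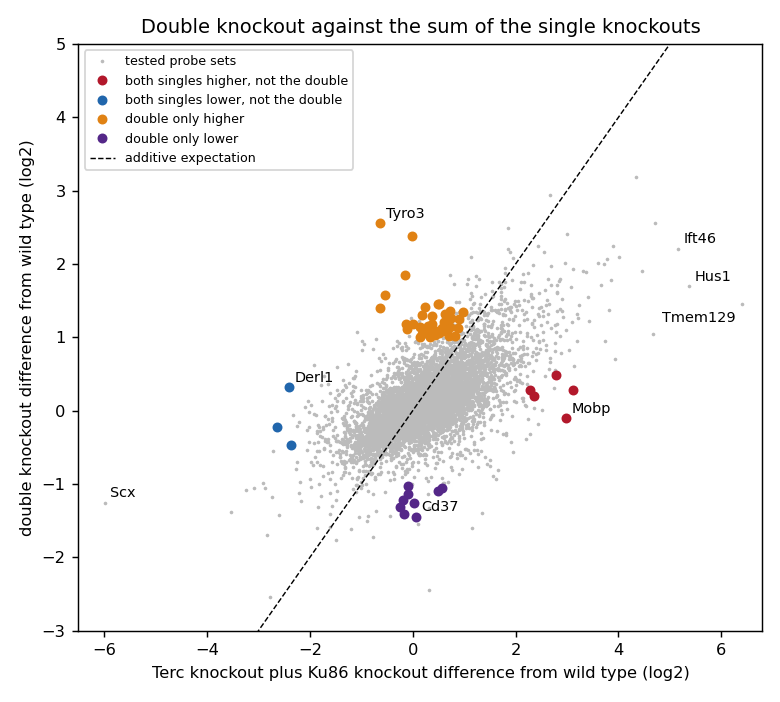
Difference of the double knockout from wild type (vertical axis, log2) against the sum of the differences of the Terc and Ku86 knockouts from wild type (horizontal axis, log2), for 7282 tested probe sets in grey and the 56 pattern members in colour. The dashed line is the additive expectation, and the vertical distance from it is the interaction, -4.94 for Tmem129 and 4.73 for Scx.

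The genes higher in both single knockouts and near the wild type level in the double were few and dim. Signals are given as pairs, replicate 1 before replicate 2, and 4 unlabelled pairs stand in the order wild type, Terc knockout, Ku86 knockout, double knockout. Mobp, a structural protein of central myelin, read 27.2 and 37.8 in wild type, 146.5 and 98.9 in the Terc knockout, 62.1 and 73.3 in the Ku86 knockout, and 17.6 and 50.5 in the double knockout. All 4 single knockout arrays were above the other 4, as on 174 (2.39%) of all tested probe sets. Its log2 differences from wild type were 1.91, 1.07 and -0.11, and its interaction was -3.09 ± 0.78 (SE, n = 2 arrays a genotype). Ddr2, a receptor tyrosine kinase for fibrillar collagen, read 20.5 and 25 in wild type, 87.1 and 64.4 in the Terc knockout, 99.1 and 35.2 in the Ku86 knockout, and 23.6 and 32.0 in the double. Again no single knockout array overlapped the rest, although Ku86 knockout replicate 2 came within a few units of double knockout replicate 2. The interaction of Ddr2 was -2.83 ± 0.85 (SE).

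The other 3 members of this group were Sar1b, a GTPase of vesicle budding at the endoplasmic reticulum, the olfactory receptor gene Olfr92, and 1 probe set without a single gene symbol. Sar1b read 26.3 and 34.2, 106.8 and 46.7, 81.8 and 95.3, and 49.5 and 35.5 in wild type, Terc knockout, Ku86 knockout and double knockout, so that 1 Terc knockout array was below 1 double knockout array. Its interaction was -2.31 ± 0.72 (SE), whereas its other tested probe set gave 0.44. Olfr92 read 18.6 and 41.0 in wild type and 17.9 and 56.2 in the double, against 52.0 to 94.9 in the single knockouts, so its groups overlapped. The 5 members had interactions from -3.09 to -2.00 and a median signal of 43.0, against 167 over all tested probe sets. The floor, to which lower values were set before log2 was taken, was 11.8.

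The group of 3 in the opposite direction read lower in both single knockouts and near wild type in the double. Derl1, a channel component that removes misfolded proteins from the endoplasmic reticulum, read 107.4 and 83.7 in wild type, 37.8 and 46.0 in the Terc knockout, 53.5 and 31.3 in the Ku86 knockout, and 144.9 and 96.7 in the double. The 4 single knockout arrays were all below the other 4, as on 58 (0.796%) of all tested probe sets. The log2 differences from wild type were -1.19, -1.21 and 0.32, and the interaction was 2.72 ± 0.61 (SE), at 2.94 in experiment 1 and 2.49 in experiment 2. A second Derl1 probe set gave an interaction of 0.075, so the pattern belongs to 1 of its 2 probe sets. Polr2i, a small subunit of RNA polymerase II, read 119.9 and 74.3 in wild type, 67.5 and 24.9 in the Terc knockout, 33.3 and 36.5 in the Ku86 knockout, and 93.2 and 70.3 in the double. The groups did not overlap, though Terc knockout replicate 1 lay just under double knockout replicate 2, and the interaction was 2.42 ± 0.74 (SE). Zap70, a kinase of the T cell receptor, had an interaction of 1.90 ± 0.70 (SE) with overlapping groups, and its other probe set gave -0.83.

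**Figure D3:**
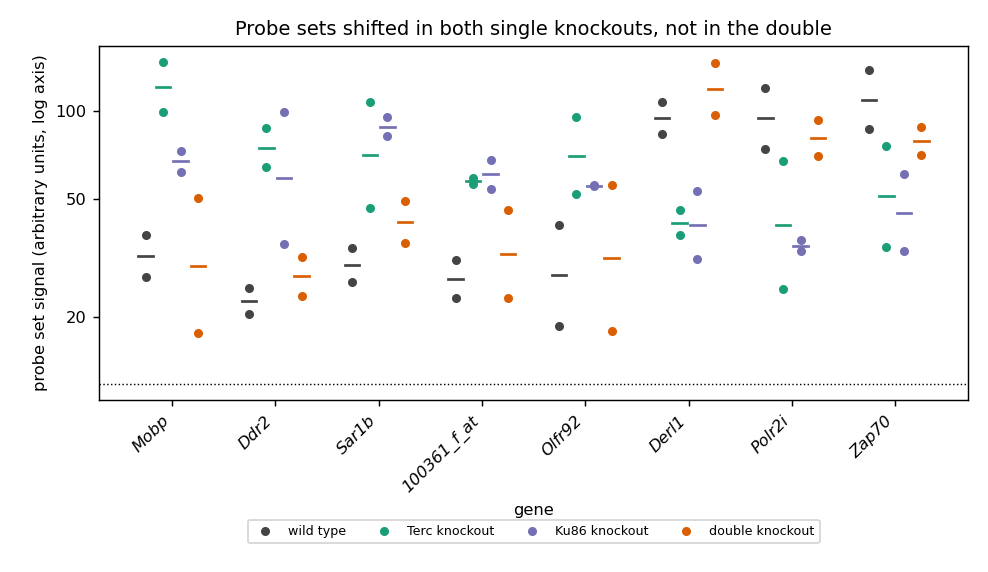
Signal of the 8 probe sets shifted in both single knockouts and not in the double, on a log axis in arbitrary intensity units. Each point is 1 array, each short line the geometric mean of a genotype (n = 2), and the dotted line the floor of 11.8. In Derl1 and Polr2i the single knockouts sit below wild type and double, in Mobp and Ddr2 above them.

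Genes higher in the double knockout only numbered 39 and those lower 9 over all arrays. That order turned within scan day 2, with 29 higher and 54 lower, and with scan day as a block there were 39 and 33. Within scan day 2 only 1 array each of wild type, Ku86 knockout and double knockout remained, so there the rule rested on single arrays. With the block, wild type replicate 1 stood alone on its day and no longer informed the wild type mean. Leaving out double knockout replicate 1 or 2 also raised the lower count, to 50 and 48, with 60 and 72 higher. The part of scan day itself in these counts was not tested. The median wild type signal of the 39 higher members was 47.0 and their median double knockout signal 121.6. In 31 of the 39 both double knockout arrays were above all 6 others, a property that 383 of all tested probe sets (5.26%) had. Membership itself asks for a double knockout far from the other groups, so that count describes the members and supports nothing. The departure from additivity was smaller than the shift itself, with interactions from 0.20 to 3.19 and a median of 0.77. Only 4 of the 39 had an unadjusted p under 0.05 on the interaction, and a single knockout counted as not shifted could still differ from wild type by up to 0.5.

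Adgrg1 and Lama1 had the lowest unadjusted p on the interaction among them. Adgrg1, an adhesion G protein-coupled receptor that binds extracellular matrix, read 37.3 and 43.0 in wild type, 27.1 and 33.2 in the Terc knockout, 41.9 and 32.3 in the Ku86 knockout, and 128.8 and 111.3 in the double. The 6 arrays of the other genotypes spanned 27.1 to 43.0, and both double knockout arrays stood far above them. The interaction was 2.12 ± 0.66 (SE), at 2.08 in experiment 1, 2.16 in experiment 2 and 2.30 within scan day 2. Lama1, the alpha chain of the laminin of early basement membranes, read 33.8 and 39.8, 34.6 and 31.3, 17.3 and 39.5, and 86.4 and 108.9 in wild type, Terc knockout, Ku86 knockout and double. It too was higher on both double knockout arrays than anywhere else, as the choice of named genes required. Its interaction was 2.05 ± 0.79 (SE) and 1.74 within scan day 2. Mgp, the matrix Gla protein that inhibits calcification, read 33.1 and 33.9, 36.0 and 16.1, 21.6 and 80.8, and 133.1 and 110.1. Ku86 knockout replicate 2 reached well over wild type there, and the interaction was 2.01 ± 0.93 (SE) over all arrays and 0.94 within scan day 2.

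The named members with the largest shifts in the double were Tyro3 and Tpp1. Tyro3, a receptor tyrosine kinase through which Sertoli cells take up dying germ cells, read 47.2 and 26.2 in wild type, 68.3 and 9.9 in the Terc knockout, 10.7 and 67.5 in the Ku86 knockout, and 269.9 and 159.4 in the double. The single knockouts each had 1 array under the floor and 1 above wild type, so their means rest on a wide spread, while the double knockout was 5.90-fold over wild type. The interaction of Tyro3 was 3.19 ± 1.26 (SE), and 1.12 within scan day 2. Tpp1, a lysosomal peptidase, read 16.4 and 40.9, 45.3 and 14.2, 30.2 and 23.0, and 113.4 and 161.2. Its interaction was 0.44 in experiment 1 and 4.34 in experiment 2, so nearly all of the mean of 2.39 ± 0.97 (SE) came from experiment 2. Ctsf, a lysosomal cathepsin, read 117.5 and 71.6, 111.6 and 50.9, 85.1 and 187.9, and 226.5 and 225.4. The double knockout arrays were alike and highest, but Ku86 knockout replicate 2 approached them, and the interaction of 1.12 ± 0.65 (SE) was 0.19 within scan day 2.

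Cst9, a cystatin of Sertoli cells, and Psca, a membrane-anchored antigen of the Ly6 family, were the last of the named members. Cst9 read 302.0 and 280.0 in wild type, 420.7 and 300.7 in the Terc knockout, 324.8 and 476.7 in the Ku86 knockout, and 884.9 and 624.2 in the double. Both single knockouts stood slightly over wild type (0.29 and 0.44 on the log2 scale) and the double at 1.35, so the interaction was 0.63 ± 0.39 (SE) and 0.044 within scan day 2. Psca read 53.7 and 30.8, 31.2 and 42.5, 78.1 and 36.7, and 99.1 and 117.8, with an interaction of 1.17 ± 0.73 (SE). A few further members, chosen after their values were seen, were also read. Clu, the Sertoli cell product clusterin, was 1.25 over wild type in the double with an interaction of 0.35, and its other probe set gave 1.47 and 0.28. Nrp1, a co-receptor for semaphorins and vascular growth factor, and Dmrt1, a transcription factor of Sertoli cells and spermatogonia, had interactions of 1.18 ± 0.90 and 1.22 ± 1.02 (SE). The interaction of Dmrt1 was -0.64 in experiment 1 and 3.08 in experiment 2. Gnas, the stimulatory G protein alpha subunit, read 1129.2 on double knockout replicate 1 and 420.1 on replicate 2, the latter just over the higher wild type array at 419.0.

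**Figure D4:**
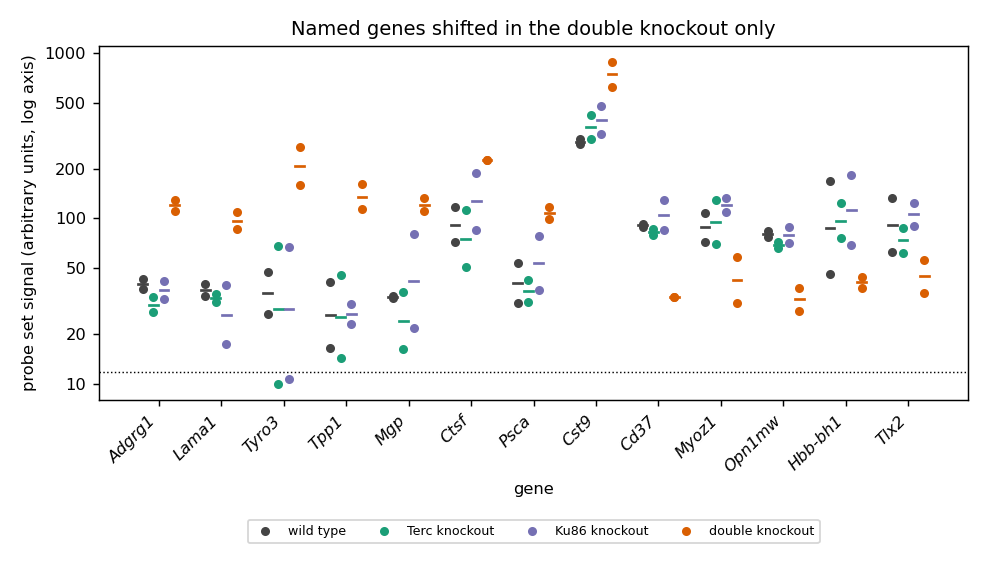
Signal of the 13 named genes shifted in the double knockout only, on a log axis in arbitrary intensity units. Each point is 1 array, each short line the geometric mean of a genotype (n = 2, values under the floor set to it), and the dotted line the floor of 11.8. The double knockout points lie above all others in the first 8 genes and below all others in the last 5. This follows from the choice, because only genes without such overlap were named.

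Genes lower in the double only were fewer. Cd37, a tetraspanin of lymphocytes, read 88.9 and 92.8 in wild type, 78.9 and 86.4 in the Terc knockout, 85.3 and 129.1 in the Ku86 knockout, and 33.2 and 33.5 in the double. The 2 double knockout arrays were nearly equal and the 6 others at least 78.9, and the interaction was -1.52 ± 0.53 (SE), at -1.19 and -1.84 in the 2 experiments. Myoz1, a calcineurin-binding protein of the muscle Z disc, read 108.2 and 71.8, 70.4 and 129.9, 133.5 and 108.7, and 30.8 and 58.2, with an interaction of -1.63 ± 0.63 (SE). Opn1mw, a cone opsin, read 77.3 and 83.5, 71.6 and 65.9, 70.9 and 88.8, and 37.8 and 27.6, with an interaction of -1.07 ± 0.57 (SE). In all 3 genes the double knockout arrays lay under every other array, as their choice as named genes required.

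Hbb-bh1, an embryonic beta-like globin, read 167.6 and 45.8, 75.5 and 123.0, 182.3 and 68.9, and 38.0 and 44.4. Wild type replicate 2 was close to the double, and the interaction was -1.59 ± 0.86 (SE). Tlx2, a homeobox gene of neural crest derivatives, read 133.1 and 62.3, 62.0 and 87.8, 90.4 and 123.7, and 56.1 and 35.5, and its interaction was 0.41 in experiment 1 and -2.30 in experiment 2. The 9 members together had interactions from -1.63 to -0.94 and a median of -1.23. In 6 the double knockout arrays lay below all 6 others, as on 2.8% of all tested probe sets. Membership itself favours this too, so that count describes the members and supports nothing.

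Promoter sequences are shown as examples for 4 genes of the double-only patterns, 3 higher and 1 lower. They are the 100 bases before the RefSeq start on build GRCm38.p6, on the gene's own strand, and capitals mark matches to GGGCGG (the GC box) or CCAAT on either strand. Adgrg1 lies at chr8:94977009-94977108 on the plus strand and is the first of 2 listed starts, Tyro3 at chr2:119799414-119799513 on the plus strand, Ctsf at chr19:4855065-4855164 on the plus strand and Cd37 at chr7:45238840-45238939 on the minus strand.
Adgrg1: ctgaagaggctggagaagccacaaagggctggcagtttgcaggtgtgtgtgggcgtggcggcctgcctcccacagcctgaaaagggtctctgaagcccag
Tyro3: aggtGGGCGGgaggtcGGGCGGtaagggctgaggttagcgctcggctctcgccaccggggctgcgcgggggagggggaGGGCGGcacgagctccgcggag
Ctsf: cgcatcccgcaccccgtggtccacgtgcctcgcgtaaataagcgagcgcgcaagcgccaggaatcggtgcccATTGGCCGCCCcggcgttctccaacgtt
Cd37: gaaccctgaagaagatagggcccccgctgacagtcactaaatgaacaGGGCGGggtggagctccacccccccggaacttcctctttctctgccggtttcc
Tyro3 and Cd37 held the GC box as written, and Ctsf held both motifs on the other strand. TATAAA and TGACGTCA were also searched on both strands and did not occur in these 4 windows, while Opn1mw held TATAAA. Over 32851 RefSeq windows of this length the GC box occurred in 24.7%, CCAAT in 18.9%, TATAAA in 5.56% and TGACGTCA in 1.15%. Of 17 named genes of the patterns 10 had an entry, and Mobp, Ddr2, Polr2i, Adgrg1, Tpp1 and Cst9 held none of the 4 motifs. The 4 windows shown had no motif in common, and matches were commoner among them than among the 10. A match is only a match of letters, and these are mouse reference sequences, not those of the animals used.

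Near the thresholds the groups shade into the rest of the array. Hsd17b10 was the least shifted member of the double-only higher group, at a log2 difference of 1.00 from wild type, and the first probe set outside also rounds to 1.00. Tlx2 at -1.03 was the last inside the double-only lower group and the first outside was at -0.999. Among probe sets higher in both singles, Sar1b was inside with a double knockout difference of 0.48 and Gga2 outside at 0.52. Among those lower in both, Zap70 was inside at -0.47 and Mark4 outside at -0.55.

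Whether a pattern chosen in 1 experiment recurred in the other was then read on the arrays not used for the choice. Of 25 probe sets higher in both singles and not in the double in experiment 1, 15 (60%) had an interaction below 0 in experiment 2, against 53.1% of all tested probe sets, and 0 met the whole pattern again. Of 17 with the opposite pattern 7 (41.2%) had an interaction above 0, against 46.9%, and again 0 recurred. Of 39 chosen as higher in the double only, 18 (46.2%) kept the sign, against 46.9%, and 2 recurred. Of 30 chosen as lower in the double only, 19 (63.3%) kept it, against 53.1%, and 2 recurred. Read the other way, from experiment 2 to experiment 1, the shares were 48.1% (all probe sets 58.2%), 35.3% (41.8%), 69.6% (41.8%) and 53.3% (58.2%). The double-only higher group therefore stood well over the background in one direction of reading and just under it in the other. For the group higher in both singles, chosen on experiment 1, the median interaction was -0.85 in experiment 2 against -2.49 where chosen. For the double-only higher group it was -0.069 against 0.97. Chosen on experiment 2 and read on experiment 1, the medians were 0.0085 against -2.63 and 0.58 against 0.68.

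A second probe set of the same gene gave a further reading of the same RNA. Among double-only higher genes 3 of 9 such probe sets had an interaction above 0, against 42.5% of all tested probe sets, with a median of -0.13. Among double-only lower genes 2 of 2 were below 0, and among genes of the both-singles groups 0 of 1 and 1 of 2 had the sign of the pattern.

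The largest interactions overall lay mostly outside these patterns, and the place of the double knockout differed from gene to gene. Tmem129, which encodes a membrane-bound ubiquitin ligase of protein quality control, read 36.1 and 56.2 in wild type, 165.1 and 624.6 in the Terc knockout, 662.7 and 426.4 in the Ku86 knockout, and 133.1 and 113.8 in the double. Every single knockout array was above every double knockout array, and those were above wild type. Its interaction was -4.94 ± 0.71 (SE, limma adjusted p = 0.124), at -4.51 and -5.38 in the 2 experiments, whereas its other probe set gave 0.20. Leaving out Terc knockout replicate 1 brought the adjusted p to 0.00406. Ift46, a component of the intraflagellar transport that builds sperm tails, read 41.5 and 43.5, 349.8 and 142.1, 338.4 and 250.2, and 205.7 and 187.0. All 3 mutant genotypes stood over wild type at log2 differences of 2.39, 2.78 and 2.21, so the 2 losses together were no higher than either, and the interaction was -2.96 ± 0.54 (SE, limma adjusted p = 0.463). The other Ift46 probe set gave 0.39.

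Hus1, a subunit of the DNA damage checkpoint clamp, was highest in the Terc knockout. It read 14.3 and 13.7 in wild type, 214.4 and 291.5 in the Terc knockout, 27.7 and 37.9 in the Ku86 knockout, and 73.6 and 27.9 in the double. All mutant arrays were above wild type, and the Terc knockout level was not reached on the arrays lacking both. The double was at a log2 difference of 1.69 against 4.16 in the Terc knockout and 1.21 in the Ku86 knockout, and the interaction was -3.67 ± 0.78 (SE, limma adjusted p = 0.792), with wild type just over the floor. Tk1, the thymidine kinase of dividing cells, read 33.3 and 65.8, 187.9 and 207.1, 143.6 and 171.9, and 91.8 and 160.3. Its 4 single knockout arrays and the double knockout arrays were all above wild type, and the interaction was -2.45 ± 0.55 (SE), with -1.04 on its other probe set. Prl, the pituitary hormone prolactin, read 71 and 75, 113.0 and 136.6, 97.1 and 123.2, and 38.7 and 19.8, which put the double knockout below wild type and the singles above it. Its interaction was -2.75 ± 0.59 (SE).

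Above the additive expectation the largest value belonged to Scx, the tendon transcription factor scleraxis, which Sertoli cells also express. It read 420.6 and 193.6 in wild type, 25.7 and 84.4 in the Terc knockout, 22.8 and 33.4 in the Ku86 knockout, and 200.1 and 71.4 in the double. Wild type and double overlapped, and the single knockout arrays lay below them except that Terc knockout replicate 2 exceeded double knockout replicate 2. The interaction was 4.73 ± 0.89 (SE, limma adjusted p = 0.463), at 7.17 and 2.29 in the 2 experiments. Hspg2, the basement membrane proteoglycan perlecan, read 138.9 and 121.9, 56.3 and 73.6, 54.6 and 81.5, and 138.9 and 136.9. Its double knockout level equalled wild type and its singles were about a log2 unit lower, just short of the threshold in the Ku86 knockout (-0.96), with an interaction of 2.06 ± 0.48 (SE).

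Epor, the erythropoietin receptor, read 143.4 and 114.9, 28.9 and 48.4, 76.6 and 119.0, and 96.0 and 139.7, so that it was low in the Terc knockout and not when Ku86 was lacking as well. Klk1b8, a kallikrein-related protease, read 223.0 and 286.1, 249.5 and 363.2, 72.2 and 58.8, and 229.7 and 249.4, low in the Ku86 knockout alone. Their interactions were 2.06 ± 0.57 and 1.62 ± 0.40 (SE), and the other Klk1b8 probe set gave -0.82. Kallikrein genes are near-identical copies whose probes may be shared, so the source of that signal is uncertain. Jpt1, the Jupiter microtubule-associated homolog and one of the brighter genes here, read 1654.2 and 1222.8, 790.3 and 937.7, 768.4 and 764.0, and 964.5 and 1090.4, with an interaction of 1.14 ± 0.29 (SE). Every mutant array was below wild type, and the double was the least lowered.

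**Figure D5:**
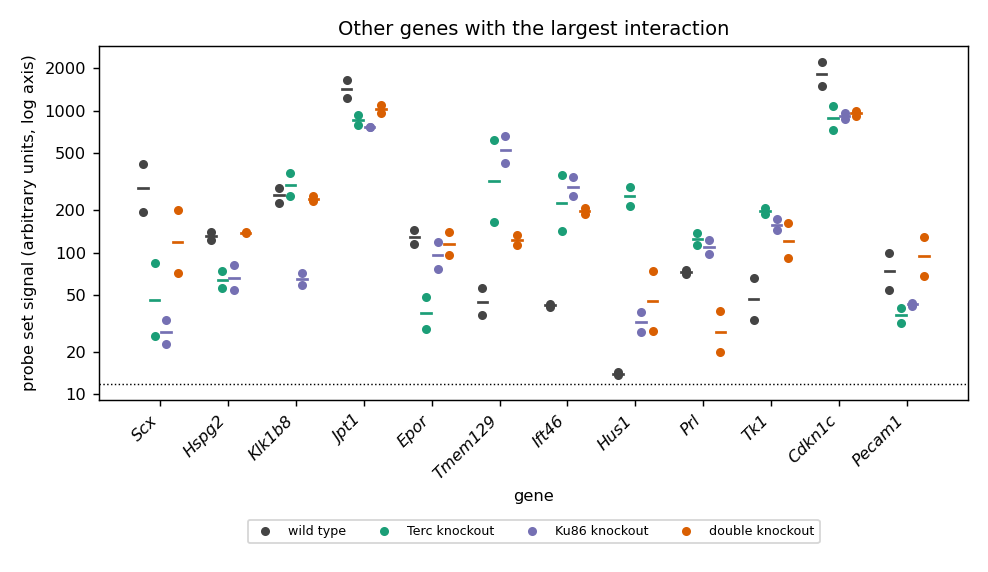
Signal of 10 genes outside the 4 patterns, and of Cdkn1c and Pecam1 from the gene lists, on a log axis in arbitrary intensity units. The 10 are the 5 above and the 5 below the additive expectation with the largest moderated t in size. They were taken among probe sets with 1 gene symbol whose gene was not already named. Each point is 1 array, each short line the geometric mean of a genotype (n = 2), and the dotted line the floor of 11.8. Tmem129, Ift46 and Tk1 stand above wild type in all mutants, and Hus1 stands highest in the Terc knockout.

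Gene lists for telomere and break biology, cell cycle and testis cell types were read by counts and medians. Over 5530 genes, each by its brightest probe set, the median interaction was -0.072, with 90 above and 162 below expectation at an unadjusted p under 0.05. Genes of the damage and telomere pathways gave no such value apart from Hus1. Of 7 tested p53 targets, 5 genes of non-homologous end joining, 8 of homologous recombination and 6 of telomere maintenance, 0 passed that unadjusted threshold in either direction, with medians of -0.10, 0.17, 0.0077 and -0.17. Of 11 break signalling genes Hus1 was the 1 below, and the median was 0.32.

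Among 5 tested cyclin-dependent kinase inhibitors, Cdkn1c, which encodes p57, read 2205.5 and 1491.2 in wild type, 1086.1 and 731.3 in the Terc knockout, 959.7 and 880.1 in the Ku86 knockout, and 997.9 and 914.6 in the double. All 6 mutant arrays were below both wild type arrays and at about one level whether 1 gene or both were lost. Its log2 differences from wild type were -1.02, -0.98 and -0.92, and the interaction was 1.08 ± 0.34 (SE, unadjusted p = 0.00849, limma adjusted p = 0.875), at 1.08 in each experiment. Of 22 proliferation genes Tk1 was the 1 at the threshold, and the median was -0.0066. Of 14 apoptosis genes the initiator caspase Casp9 was the 1, at -1.09 ± 0.45 (SE).

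Of 16 round spermatid genes 13 had an interaction above 0, against 2438 of all 5530 genes (44.1%). Their median was 0.24, with -0.021 in experiment 1 and 0.37 in experiment 2, and Ace, which has a germ cell form, was the 1 above expectation, at 0.85. Spermatogonia (5 genes), spermatocytes (5) and elongating spermatids (13) had 0 at the unadjusted threshold and medians of -0.24, 0.13 and -0.0050. Stress lists gave single genes, Egr2 at -2.07 ± 0.72 and Klf4 at 0.91 among 12 immediate early genes, Txn1 at 1.23 ± 0.48 among 22 antioxidant genes, Cox6c at 0.61 ± 0.23 among 29 of oxidative phosphorylation, and Tap1 at -1.86 ± 0.84 among 4 interferon genes (SE). The 18 heat shock and unfolded protein genes had 0, with a median of -0.0033.

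Sertoli cell and peritubular, vascular and matrix genes summed to their highest signal on the double knockout arrays. Each list had 1 tested gene in a pattern, Cst9 and Lama1, against 37 of all 5530 genes, and the dimmer of the Clu probe sets was a member as well. Summed over the 18 tested of 24 listed Sertoli genes (20 had a probe set), signal was 2972.4 to 3023.8 in wild type, 4008.9 to 4471.1 in the Terc knockout, 3250.6 to 4832.1 in the Ku86 knockout, and 5388.3 to 6382.5 in the double, where both arrays exceeded all others. Summed over the 18 tested of 24 peritubular, vascular and matrix genes it was 2315.0 to 2455.0, 3132.3 to 3663.8, 2889.5 to 3565.1, and 3708.5 to 4299.5, again highest on the double knockout arrays. A sum weighs bright genes most, and these sums hold Cst9, Clu and Lama1, so they are not a reading separate from the pattern members. The list medians of the log2 difference from wild type were 0.56, 0.41 and 0.73 for Sertoli genes and 0.52, 0.44 and 0.85 for the others. The median interactions were -0.12 and -0.28. That of the Sertoli genes turned to 0.14 after quantile normalization, and was 0.23 in experiment 1 and -0.42 in experiment 2, so its direction is not settled. That of the other list was -0.26 and -0.28 in the 2 experiments. In bulk testis RNA, a larger share of cells of a type and more RNA per cell cannot be told apart. The part of cell makeup in the double-only values of Cst9, Clu and Lama1 was not tested.

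Within those lists Pecam1, an adhesion molecule of endothelial cells, read 100 and 54.1, 32.1 and 41.0, 44.2 and 42.3, and 129.3 and 68.6, so all single knockout arrays were below wild type and double. Its interaction was 2.14 ± 0.69 (SE, unadjusted p = 0.00908). Lamc1, the gamma chain partner of Lama1, lay on the other side at -1.05, as did the Sertoli cell receptor gene Fshr at -0.87. Leydig cell (9 genes) and macrophage and immune genes (8) had 0 at the threshold, with medians of 0.068 and -0.10, and 2 epididymal genes had 0, with a median of -0.37. The summed macrophage and immune signal was 981.6 to 1125.4 in wild type and 1065.1 to 1117.1 in the double. The erythroid sum was 2877.5 to 3676.5 in wild type, 2041.2 to 3846.8 in the Terc knockout and 1419.1 to 3026.6 in the Ku86 knockout. In the double it was 1852.0 to 2009.7, within the span of the Ku86 knockout. Erythroid genes differed in direction, with log2 differences of the double from wild type of -1.01 for Hba-a1 and 1.29 for Slc4a1. Epor was the 1 of 6 erythroid genes at the unadjusted threshold, and the list median was -0.18.

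Scan day, and with it chip lot, moves with part of the design, because wild type replicate 1 stood alone on its day and day 1 held only arrays labelled as lacking Ku86. Within scan day 2, 5 of 5, 3 of 3, 31 of 39 and 8 of 9 members of the 4 patterns had the sign of their pattern. With scan day as a block the counts were 5, 3, 37 and 9. These readings reuse arrays that chose the members, so the choice itself favours the sign of the pattern. Over all 8 arrays the interaction was below 0 in 57.5% of tested probe sets and above 0 in 42.5%. Fewer met the whole rule again. With scan day as a block these were 2 of 5, 1 of 3, 9 of 39 and 4 of 9, and within scan day 2 they were 1, 1, 5 and 2. Of the 70 probe sets at an unadjusted p under 0.01 (0.961%), 12 (17.1%) had names ending in _r_at, the array's mark for probe sets designed with some selection rules dropped, against 5.26% of all tested. Tmem129 is among them.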

How the data were processed

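The deposited intensities, 1 for each probe set, are on a linear scale to which the authors brought every array. No source used here names their software. The mean without the top and bottom 2% was 200.127 to 200.157 on every array, so values were kept as deposited. Values under the pooled 20th percentile (11.8) were raised to it before taking log2. Of 12488 probe sets, 66 controls and 5140 dim ones (mean under the pooled 40th percentile, 38.1) were left out. Of all probe sets 10855 had 1 gene symbol, 396 several and 1237 none in GEO's platform annotation, which can be old.

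One mean per genotype was fitted to all 8 arrays with limma 3.58.1 in R 4.3.3 (lmFit, eBayes with a variance trend), two-sided, with Benjamini-Hochberg adjustment over 7282 probe sets. Each array is 1 replicate, and where nothing says that arrays came from separate animals the p-values measure only the spread between these samples. Array number limits precision. Values of pattern members are descriptions, because the same values chose them.

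Named genes were Xrcc5 and Terc, up to 8 non-overlapping genes per pattern by moderated t, up to 5 more in each direction at an unadjusted p under 0.01, and members of the 23 gene lists at that p. Clu, Nrp1, Dmrt1, Gnas and the edge and list genes given without all 8 values were chosen after their values were seen. A gene's promoter is the first start in the RefSeq table. The patterns, members and lists were chosen with earlier results of these data known. The labels number experiments 1 and 2, but deviations from genotype means correlated at only 0.013 to 0.25 between same-numbered arrays, so arrays were not paired. Alternatives changed the normalization, floor, filter, variance model, arrays, scan day, scale and thresholds. The steps were checked on simulated data.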

Additional observations from a re-analysis of the deposited data

How the results depend on the processing

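Among 30 named genes, 609 values under alternative settings comprised 602 with the same direction and call, 4 newly past the threshold and 3 reversed. The reversals all concerned Xrcc5, at -0.22 after raising the floor to the 40th percentile, -0.67 without Terc knockout replicate 2 (1.92 without replicate 1) and -78.4 signal units on the linear scale. The cause was not tested. Counts of calls were 0 except for 9 within scan day 2 (Tmem129, Ift46, Hus1, Plec, Ube2f, Nt5dc3, Tubb2a, P4hb and a probe set without a symbol), where 1 residual degree of freedom comes from the Terc knockout pair alone, and 8 with no filter, none above a signal of 43.2. Leaving out 1 array gave 0 to 1 calls, with Tmem129 called without Terc knockout replicate 1 and the probe set without a symbol without Ku86 knockout replicate 1. Probe sets above and below expectation at an unadjusted p under 0.05 numbered 254 and 108 with median centring, 192 and 512 with no filter, and 73 and 159 with the filter at the 60th percentile, and 137 were below within scan day 2. Leaving out 1 array gave 71 to 289 above and 100 to 449 below. The share below was 62.1% with scan day as a block. With the experiment number as a replicate block there were 0 calls and 542 (7.44%) at an unadjusted p under 0.05, and that block changed no named call.

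Pattern counts in the order both singles higher, both singles lower, double only higher and double only lower depended on every threshold. Quantile normalization gave 2, 6, 31 and 20, median centring 3, 7, 37 and 23, no filter 23, 7, 102 and 18, and the filter at the 60th percentile 0, 0, 10 and 1. Scan day as a block gave 10, 1, 39 and 33, and scan day 2 alone 18, 6, 29 and 54. A shift of 0.75 gave 35, 8, 99 and 27, a shift of 1.5 gave 0, 0, 4 and 0, and a limit of 0.25 for not shifted gave 2, 1, 7 and 5. The first count was 3 for the higher floor and 9 on group means alone, and the second was 0 with an offset in place of the floor. Leaving out 1 array gave 5 to 19, 2 to 8, 17 to 72 and 7 to 50. The double-only higher count was 60 without double knockout replicate 1, 72 without replicate 2, 17 without Ku86 knockout replicate 1 and 22 without Terc knockout replicate 2. The double-only lower count was 50, 48, 32 and 14 without double knockout replicates 1 and 2 and wild type replicates 1 and 2. The share with the same sign for the double-only higher pattern was 69.6% when chosen on experiment 2. List medians moved for break signalling (0.40 with quantile normalization and 0.22 with scan day as a block), apoptosis (-0.054 and -0.24), peritubular, vascular and matrix genes (-0.043 and -0.20), macrophages (0.11 and 0.18) and epididymis (-0.25 and -0.012), and for cyclin-dependent kinase inhibitors with scan day as a block (-0.11). Medians of other lists that changed sign were 0.14 for Sertoli cells, 0.069 for spermatogonia and -0.038 for oxidative phosphorylation with quantile normalization, and 0.011 for proliferation, 0.0098 for elongating spermatids and 0.11 for heat shock genes with scan day as a block. Signals near background limit the dim members.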
